A study of Mus musculus with 4 samples.

Results

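The expression of 5 genes was followed in libraries labelled as mouse gonadotropes, from conditional Gata2 knockout mice and from controls. The 5 are the seizure-related gene Sez6, its paralogues Sez6l and Sez6l2, and the protease genes Bace1 and Bace2. The genes were taken by symbol from the deposited table of 54532 genes. Sez6 was selected on its own counts in these 4 libraries, where it was lower in the knockout, and the other 4 were chosen by their relation to it, so the values of Sez6 in this comparison are a description and carry no test. Of the 5 genes, 4 passed the filter on low counts and were tested among 17349 genes. Bace2 did not pass it.

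Gonadotropes are the pituitary cells that make luteinizing hormone and follicle-stimulating hormone. The libraries were made from poly(A) RNA of gonadotropes sorted from pituitaries of male mice aged 10 to 12 weeks on a mixed strain background, 2 from conditional Gata2 knockout (cKO) mice and 2 from controls. The series' title places the deletion in gonadotropes, while its design text speaks of pituitaries profiled in bulk, and the sample labels were followed. The sources used here do not give the promoter that drives the recombinase, the alleles that control mice carry or the number of animals behind each library. The 2 libraries of a group may therefore be technical replicates, and p-values measure only the spread between these libraries.

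The 3 SEZ6 proteins span the cell membrane once and carry CUB and sushi domains, folds of the complement system, on their outer part. They are best known from neurons, where SEZ6 takes part in the shaping of dendrites and synapses. The aspartic protease BACE1, known for the first cut of the amyloid precursor protein, cleaves SEZ6 near the membrane and releases its outer part. BACE2 is a related protease known from pancreatic islets and pigment cells, and in mouse islets SEZ6L and SEZ6L2 are among the substrates of the BACE proteases.

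Sez6 is ENSMUSG00000000632.13, on mm10 chromosome 11 from 77930800 to 77979048 on the plus strand. Sez6l (ENSMUSG00000058153.15) lies on chromosome 5 from 112419151 to 112577185 on the minus strand, and Sez6l2 (ENSMUSG00000030683.11) on chromosome 7 from 126950563 to 126970606 on the plus strand. Bace1 (ENSMUSG00000032086.12) lies on chromosome 9 from 45838580 to 45864399 and Bace2 (ENSMUSG00000040605.7) on chromosome 16 from 97356742 to 97442936, both on the plus strand. The 5 genes are thus on 5 chromosomes.

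Whether reads of the paralogues could be told apart was looked at first, since the deposited counts contain reads divided between genes. The longest coding sequences in GENCODE M21 have 2976 bases in Sez6, 2895 in Sez6l and 2772 in Sez6l2. In pairwise alignment 63.7% of the aligned bases were identical between Sez6 and Sez6l, 65.5% between Sez6 and Sez6l2 and 64.2% between Sez6l and Sez6l2. The longest identical run within the coding sequences was 16 bases for Sez6 and Sez6l, 15 bases for Sez6 and Sez6l2 and 23 bases for Sez6l and Sez6l2. Each run is printed in capitals with 20 bases of coding sequence on either side, to let the degree of likeness be seen at the places where the paralogues are most alike.
Sez6, coding bases 2004 to 2059: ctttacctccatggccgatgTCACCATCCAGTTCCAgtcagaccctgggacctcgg
Sez6l, coding bases 1938 to 1993: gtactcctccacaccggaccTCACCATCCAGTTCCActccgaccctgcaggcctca
Sez6, coding bases 1724 to 1778: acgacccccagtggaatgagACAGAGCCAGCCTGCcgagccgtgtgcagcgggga
Sez6l2, coding bases 1535 to 1589: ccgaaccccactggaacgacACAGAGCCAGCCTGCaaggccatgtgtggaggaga
Sez6l, coding bases 2501 to 2563: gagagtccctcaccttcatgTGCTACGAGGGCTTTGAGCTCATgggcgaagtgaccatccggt
Sez6l2, coding bases 2375 to 2437: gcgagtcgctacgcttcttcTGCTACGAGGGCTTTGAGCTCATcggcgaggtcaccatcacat

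Even at these places the flanking bases differ between the paralogues. With untranslated parts included, no run shared by any transcripts of a pair was longer than 23 bases. All 4 deposited values of Sez6 and all 4 of Sez6l were whole numbers, and 1 of the 4 values of Sez6l2 was not (17310.5 in control replicate 2). Sez6l2 shares 413 bases of exon on the same strand with Gm21984, which had 28 counts, all in that library. Which gene the divided reads were shared with was not tested. Bace1 and Bace2 were 64.9% identical over the aligned coding bases, with a longest shared run of 15 bases.

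The knockout was seen first in Gata2 itself, a zinc-finger transcription factor. Gata2 had 221 and 214 CPM (counts scaled to library size with TMM factors) in the cKO libraries, against 537 and 526 CPM in the control libraries. Its log2 fold change, cKO minus control, was -1.29 (SE 0.14, edgeR adjusted p = 0.0473). Library totals were 15541553 and 18362182 counts in cKO and 10646909 and 21135301 counts in control. Control replicate 1 was the shallowest and stood apart, with a Pearson correlation of log2 CPM across genes of 0.889 with control replicate 2 and 0.841 and 0.854 with the cKO libraries, while control replicate 2 had 0.917 and 0.928 with the cKO libraries.

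Sez6 was lower in both cKO libraries than in either control. It had 57.9 and 53.5 CPM in the cKO libraries, from 900 and 952 counts, against 217 and 198 CPM in the control libraries, from 2389 and 4150 counts. The replicates lay close together and the groups did not overlap, and both cKO libraries were below both controls for 19.3% of all genes tested. The mean of 55.7 ± 3.09 CPM in cKO was 26.8% of the 208 ± 13.4 CPM in controls (SD, n = 2 each), and the log2 fold change was -1.90 (SE 0.18, 95% interval -2.33 to -1.47). Sez6 was chosen among the genes called in this comparison, of which 8 were lower, or 0.0461% of the genes tested, so nothing is read from its own call. The adjusted p of 0.0413 became 0.0531 with a filter of 1 CPM in 2 libraries.

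**Figure D1:**
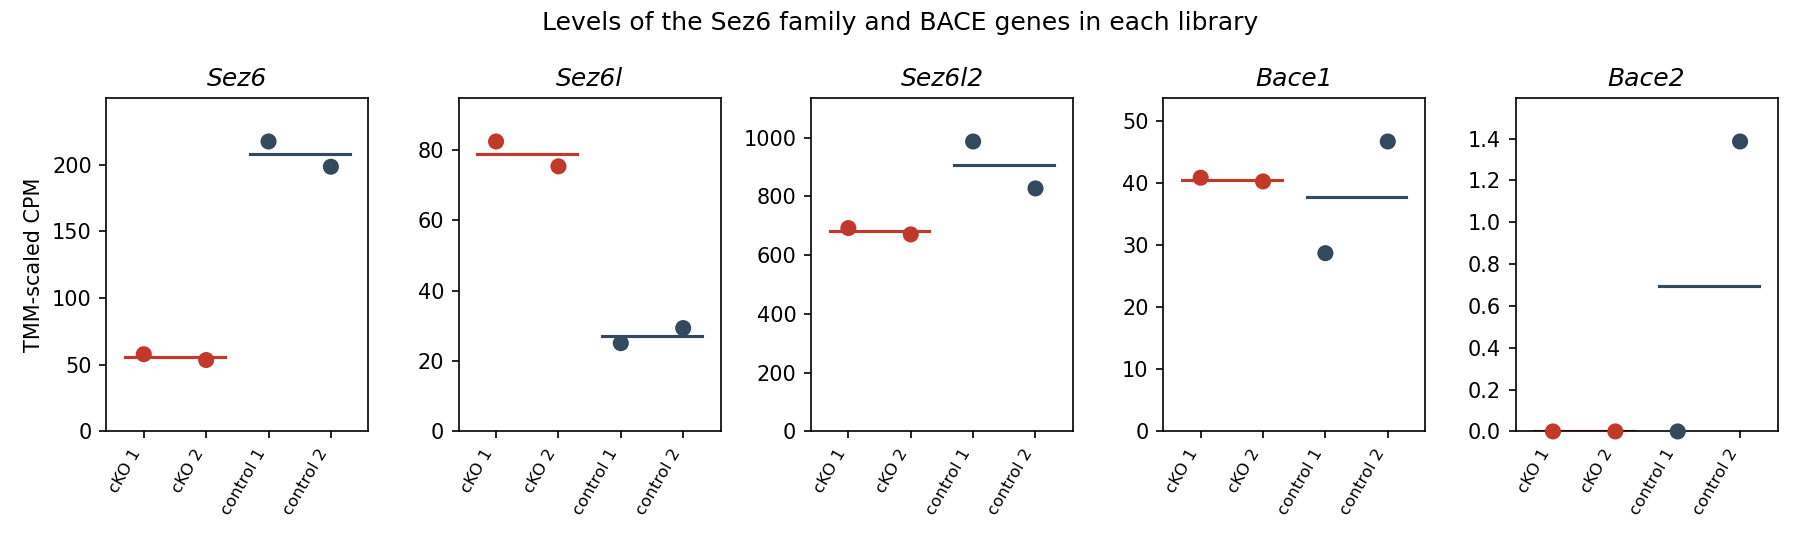
TMM-scaled CPM of each of the 5 genes in each library, on a linear axis of its own for each gene, with cKO libraries in red and control libraries in blue and lines at the group means. Sez6 is at 57.9 and 53.5 CPM in cKO against 217 and 198 CPM in control, Sez6l lies the other way round, and the Bace1 groups overlap.

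The paralogue Sez6l had the opposite pattern. It had 82.4 and 75.4 CPM in the cKO libraries, from 1282 and 1341 counts, against 25.1 and 29.4 CPM in the control libraries, from 276 and 615 counts. Both cKO libraries were above both controls, as was the case for 19.7% of all genes tested. The means were 78.9 ± 4.999 CPM in cKO and 27.2 ± 3.04 CPM in control (SD, n = 2 each). The log2 fold change of 1.53 (SE 0.26, 95% interval 0.93 to 2.14) did not pass over all genes (edgeR adjusted p = 0.212), in a comparison where 2 genes, 0.0115% of those tested, were called higher. It passed in 5 of 16 alternatives, among them DESeq2 (adjusted p = 3.90e-11) and limma-voom (adjusted p = 0.00333), and the adjusted p ranged up to 0.237. Over all genes tested, DESeq2 called 5.44% and limma-voom 1.48%.

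Sez6l2, the most abundant member of the family, differed less. It had 692 and 671 CPM in the cKO libraries, against 987 and 827 CPM in the control libraries. The groups did not overlap, with both cKO libraries below both controls, as for 19.3% of all genes tested. The controls differed from each other by more than the cKO libraries did, and the cKO mean was 75.1% of the control mean. The log2 fold change of -0.41 (SE 0.14, 95% interval -0.74 to -0.09) did not pass (edgeR adjusted p = 0.642), while DESeq2 gave an adjusted p of 0.0364 and limma-voom 0.0496.

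The protease gene Bace1 had 40.9 and 40.3 CPM in the cKO libraries, against 28.7 and 46.7 CPM in the control libraries. The cKO values lay between the controls. The log2 fold change was 0.10 (SE 0.33, 95% interval -0.68 to 0.89, edgeR adjusted p = 0.999), and its sign rested on the controls, with -0.21 without control replicate 1 and 0.50 without control replicate 2. Bace1 shares 975 bases of exon with Rnf214, 951 with Gm49338 and 135 with Gm16536, all on the opposite strand. The sources used here do not say whether reads were counted by strand. Over all libraries Bace1 had 2647 counts, Rnf214 2655, Gm16536 552 and Gm49338 540, so some of the reads given to Bace1 may come from these genes. The values of Bace1, Rnf214, Gm16536 and Gm49338 were whole numbers in every library. Whether Bace1 gained or lost reads at the shared exons was not tested. Rnf214 had 24.95 and 43.6 CPM in cKO, against 37.5 and 51.6 CPM in control.

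Bace2 was at or near the limit of detection. It had 0 counts in both cKO libraries and in control replicate 1, and 29 counts (1.39 CPM) in control replicate 2. A count of 0 allows a level of up to 0.193 and 0.169 CPM in the cKO libraries and 0.273 CPM in control replicate 1, taken as 3 counts and covering counting error only. The groups overlap at 0, and no fold is given.

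Whether the difference was shared by the family was asked with the intervals of the other genes. A log2 fold change of -1.90, the value of Sez6, lay outside the 95% interval of Sez6l, of Sez6l2 and of Bace1. The bound nearest to it was -0.74 for Sez6l2, -0.68 for Bace1 and 0.93 for Sez6l. These intervals are for single genes and are not adjusted for the number of genes. Since Sez6 was selected for its difference, the distance between its value and the others is a description of these libraries and was not tested, and 2 libraries against 2 cannot give an exact two-sided permutation p below 0.333.

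**Figure D2:**
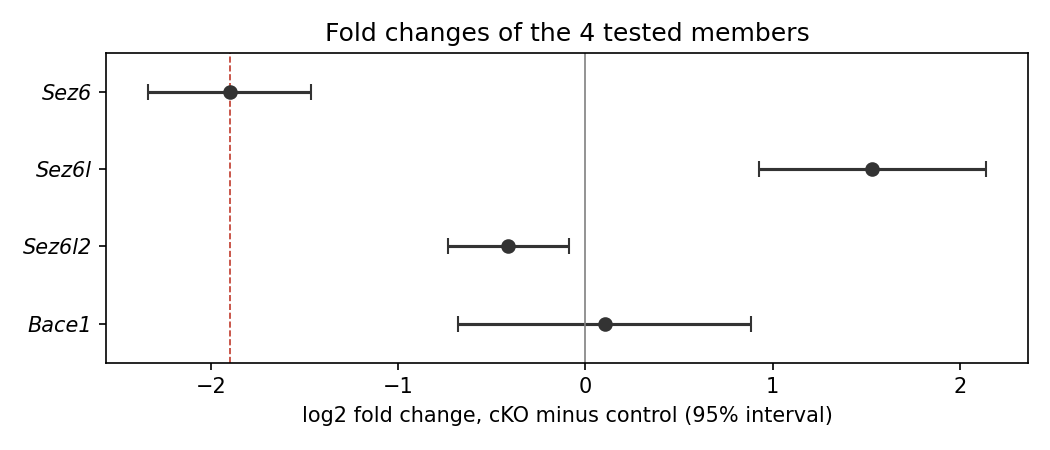
Log2 fold change, cKO minus control, of the 4 tested genes (points) with 95% intervals from the fit across all genes (bars), and a dashed line at the value of Sez6. The interval of Sez6l, 0.93 to 2.14, lies above 0, that of Sez6l2 is -0.74 to -0.09, that of Bace1 spans 0, and none of the 3 reaches the dashed line at -1.90.

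Ratios within a library do not depend on the scaling between libraries. They hold the same Sez6 counts on which it was selected, so they describe the difference again and add no separate support. There were 0.702 and 0.710 Sez6 counts for each Sez6l count in the cKO libraries, against 8.66 and 6.75 in the control libraries. For each Sez6l2 count there were 0.0836 and 0.0798 Sez6 counts in the cKO libraries, against 0.220 and 0.240 in the control libraries. On the log2 scale, with 0.5 CPM added, the ratio of Sez6 to Sez6l differed by -3.41 between the group means, and that of Sez6 to Sez6l2 by -1.48. The pooled SD within groups was 0.18 for the ratio to Sez6l and 0.070 for the ratio to Sez6l2 (n = 2 each), and no test was drawn from it.

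Per length, Sez6l2 held most of the family's transcripts in every library. In CPM per kb of merged exons, Sez6l2 stood at 164 and 159 in the cKO libraries, against 234 and 196 in the control libraries. Sez6 stood at 10.0 and 9.26 in cKO, against 37.6 and 34.3 in control, and Sez6l at 13.6 and 12.4 in cKO, against 4.13 and 4.84 in control. Sez6 was thus the next most abundant family member after Sez6l2 in controls, whereas in cKO it lay just below Sez6l. With the length of the longest coding transcript in place of merged exons, a choice made after seeing the data, Sez6 had 13.7 and 12.6 and Sez6l 14.1 and 12.9 CPM per kb in cKO, so the order of the pair there is within the spread of the libraries.

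Sez6 made up 5.33% and 5.12% of the family sum per length in the cKO libraries, against 13.6% and 14.6% in the control libraries. The share of Sez6l was 7.22% and 6.86% in cKO, against 1.497% and 2.05% in control. Sez6l2 held 87.5% and 88.02% in cKO, against 84.9% and 83.4% in control. The sum of the 3 genes was 188 and 181 CPM per kb in cKO, against 276 and 236 in control, a difference set mainly by Sez6l2 and Sez6. Bace1 had 6.44 and 6.35 CPM per kb in cKO, against 4.53 and 7.36 in control, which is below Sez6 in all 4 libraries and overlaps the range of Sez6l in controls.

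**Figure D3:**
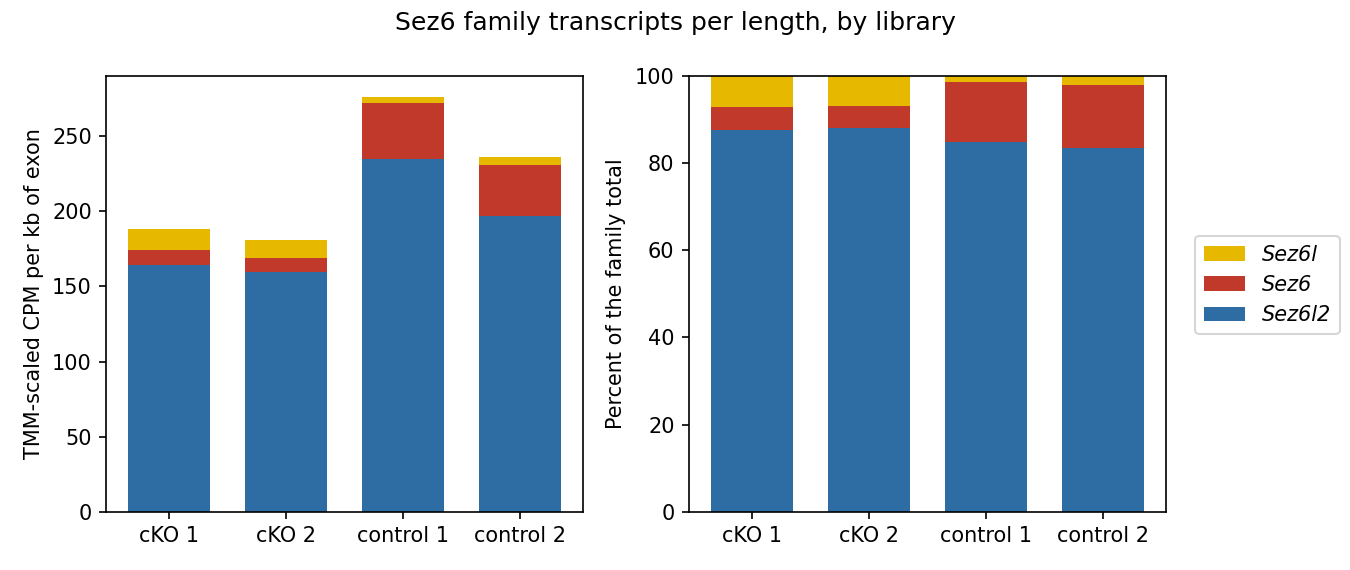
Stacked bars for the 2 cKO and 2 control libraries of the Sez6 family, as TMM-scaled CPM per kb of merged exons (left) and as percent of the family sum (right), with Sez6l2 in blue, Sez6 in red and Sez6l in yellow. Sez6 takes 5.33% and 5.12% of the sum in cKO against 13.6% and 14.6% in control, and Sez6l 7.22% and 6.86% against 1.497% and 2.05%.

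Of the 16 tested coding genes that lie nearest to the 4 tested members without overlapping them, edgeR called 0, and DESeq2 and limma-voom called 0. At an unadjusted p under 0.05 there were 2 (Grk3 and Dscaml1). Over all genes tested the shares were 0.0576% by edgeR, 7.04% for the unadjusted p, 5.44% for DESeq2 and 1.48% for limma-voom. Beside Sez6, Phf12, 3.71 kb away, differed by -0.02 on the log2 scale (SE 0.18) and Myo18a, on the other side, had 0.07 (SE 0.17). Values of the other 2 neighbours of Sez6 were imprecise, with 0.43 (SE 1.62) for Pipox and -0.76 (SE 1.04) for Dhrs13. Phf12 codes for a chromatin-binding zinc-finger protein, and Myo18a for an unconventional myosin. Near Sez6l, Asphd2, 24.3 kb away, had an imprecise 1.99 (SE 1.52), and Hps4, 40.7 kb away, had -0.03 (SE 0.38). Grk3, a receptor kinase gene 333 kb away, differed by 1.14 on the log2 scale (SE 0.43, adjusted p = 0.676 by edgeR). For Sez6l2 the neighbour Cdipt, which codes for phosphatidylinositol synthase, had 0.38 (SE 0.31).

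Promoter sequence was looked up in RefSeq's table for GRCm38.p6, where 1 of the 5 genes, Sez6l, was matched. Sez6, Sez6l2, Bace1 and Bace2 were not matched. The Sez6l promoter is shown because it was the only 1 matched, and GATA was searched because GATA2 binds these letters. It covers chr5:112577149-112577448 on the minus strand, 250 bases before and 50 after the start of the transcript, and capitals mark matches of GATA on either strand.
Sez6l promoter: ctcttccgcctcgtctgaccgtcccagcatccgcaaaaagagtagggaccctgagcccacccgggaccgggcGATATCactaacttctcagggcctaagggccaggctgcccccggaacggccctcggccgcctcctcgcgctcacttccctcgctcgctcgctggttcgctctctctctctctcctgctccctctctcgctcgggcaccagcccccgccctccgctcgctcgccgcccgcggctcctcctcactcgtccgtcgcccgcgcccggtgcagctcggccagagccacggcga

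The window held 2 matches of GATA, on opposite strands and overlapping. GATA on either strand was present in 57.9% of the 32851 promoter windows of that length, so a match is common. The letters TAATCC, bound by PITX factors, and AAGGTCA, bound by the nuclear receptor SF1, were searched on both strands too and were not in this window, and 7.06% and 4.72% of all windows held them. A match of letters is not evidence that a factor binds there.

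The genes whose pattern over the 4 libraries was most like that of Sez6 were Cbx8, Ephx2, Cryz, Plcb3, Creb3l4 and Serpine2, by the Euclidean distance of centred log2 CPM among 11617 genes of adequate level. The distances were 0.049 for Cbx8, 0.057 for Ephx2, 0.18 for Cryz, 0.27 for Plcb3, 0.27 for Creb3l4 and 0.28 for Serpine2, in log2 units over 4 libraries. Cbx8 codes for a Polycomb protein, Ephx2 for soluble epoxide hydrolase, Plcb3 for a phospholipase C and Serpine2 for a serine protease inhibitor. Cbx8 had 6.17 and 5.79 CPM in cKO, against 25.3 and 23.3 CPM in control, which is a far lower level than that of Sez6 with nearly the same profile. Serpine2 had 137 and 109 CPM in cKO, against 563 and 509 CPM in control. Cryz had 28 and 25 counts in the cKO libraries and Creb3l4 had 23 and 26, so their profiles rest on few reads. On the same measure Sez6l2 ranked 1623rd, Bace1 7044th and Sez6l 11084th. The measure holds the same Sez6 counts on which it was selected. The ranks therefore describe the differences between the groups again and add no separate support.

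Other substrates of the BACE proteases went in both directions. Of 22 genes listed, 15 were tested and edgeR called 0 in either direction, against 0.0576% of all genes tested. At an unadjusted p under 0.05, which 7.04% of all tested genes had, there were 2 higher and 2 lower. DESeq2 called those 4 (Il6st, Chl1, Aplp1 and Il1r2) and limma-voom called Il6st and Aplp1, against 5.44% and 1.48% of all tested genes. The median log2 fold change was -0.03, against 0.03 over all genes tested, and 0.14 to 0.46 with any 1 library left out, where more members passed the filter.

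Il6st, which codes for the cytokine co-receptor gp130, had 720 and 616 CPM in cKO, against 363 and 442 CPM in control, which is 0.73 on the log2 scale (SE 0.16, adjusted p = 0.394 by edgeR). Aplp1, for a paralogue of the amyloid precursor protein, had 1014 and 1181 CPM in cKO, against 1934 and 1486 CPM in control. Neither gene's groups overlapped, which held for 39% of the genes tested. Chl1, for a neural cell adhesion molecule, had 160 and 124 CPM in cKO, against 96.9 and 80.5 CPM in control. Il1r2, the gene of the decoy receptor for interleukin-1, had 0 counts in both cKO libraries, against 52 and 58 counts in the control libraries. It was at least 20.7-fold lower in cKO against a floor of 3 counts per library. That bound was 15.3-fold without control replicate 1 and 26.2-fold without control replicate 2. Il1r2 passed the filter only through its control counts, and its level there was low, at 4.73 and 2.77 CPM.

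Genes for BACE trafficking and maturation were all expressed. Of 16 tested, edgeR called 0, with 1 higher and 2 lower at an unadjusted p under 0.05, all 3 called by DESeq2 and Sorl1 alone by limma-voom. Over all genes these shares were 7.04% for the unadjusted p, 5.44% for DESeq2 and 1.48% for limma-voom. The median log2 fold change was 0.16. Sorl1, the gene of a sorting receptor that steers the amyloid precursor protein away from BACE1, had 237 and 200 CPM in cKO, against 332 and 411 CPM in control (log2 fold change -0.77, SE 0.18, edgeR adjusted p = 0.413). Arf6, for a small GTPase of endosomal traffic, had 160 and 122 CPM in cKO, against 70.3 and 88.1 CPM in control. Usp8, for a deubiquitinase of endosomes, had 97.9 and 112 CPM in cKO, against 156 and 143 CPM in control, and Rtn4, for a reticulon that binds BACE1, had a log2 fold change of 0.41 (SE 0.18).

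The gamma-secretase complex, which makes the cut inside the membrane after BACE, showed 0 of 7 genes called and 0 at an unadjusted p under 0.05 by edgeR, and 0 by DESeq2 or limma-voom. The median was -0.10, and 0.020 and 0.024 without control replicate 2 and without cKO replicate 1. Psen2, for a catalytic subunit, had 54.0 and 53.4 CPM in cKO, against 45.3 and 37.0 CPM in control, and its log2 fold change was 0.39 (SE 0.26). Ncstn, for the scaffold nicastrin, had -0.13 (SE 0.18), and Aph1a had 0.45 (SE 0.49), or -0.075 without control replicate 1 and 1.27 without control replicate 2.

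Among other membrane sheddases and their regulators 0 of 11 tested genes were called by edgeR, DESeq2 or limma-voom, and 0 had an unadjusted p under 0.05. The median was 0.34, but -0.11 without cKO replicate 1 and -0.039 without control replicate 1. Adam10, for the main alpha-secretase, had 69.4 and 75.9 CPM in cKO, against 51.7 and 71.6 CPM in control. Mmp14, for a membrane-bound metalloproteinase, had a log2 fold change of 0.58 (SE 0.43), Rhbdf2, for a partner of ADAM17, 0.57 (SE 0.47), and Timp3, for an inhibitor of these proteases, -0.53 (SE 0.47). The values of Mmp14 and Rhbdf2 rested on the controls: Mmp14 had 0.050 without control replicate 1 and 1.42 without control replicate 2, and Rhbdf2 had 0.11 and 1.23 in these fits.

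Other membrane proteins with CUB or sushi domains gave a single gene with an unadjusted p under 0.05 among 13 tested, Nrp2, while edgeR called 0 and DESeq2 and limma-voom called Nrp2. Nrp2 codes for neuropilin-2, a receptor of semaphorins and vascular growth factors. It had 77.2 and 69.6 CPM in cKO, against 174 and 158 CPM in control, which is -1.18 on the log2 scale (SE 0.19, adjusted p = 0.191 by edgeR). The replicates were close, and both cKO libraries lay below both controls, as for 19.3% of all genes tested. DESeq2 and limma-voom called 5.44% and 1.48% of all genes tested. Nrp2 was also called with no filter and by edgeR's newer quasi-likelihood method, which called 253 and 47 genes against 10 in the main fit. Neto2, for an auxiliary subunit of kainate receptors, had 0.89 (SE 0.53), Csmd2 0.60 (SE 0.45) and Dcbld2 0.33 (SE 0.30). With 1 library left out Neto2 ran from 0.32 without control replicate 1 to 1.85 without control replicate 2, and Csmd2 from 0.079 without cKO replicate 2 to 0.98 without cKO replicate 1. The median of the list was 0.33, and 0.81 without control replicate 2.

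Genes for reported partners of the SEZ6 family included the glutamate receptor subunits with which SEZ6 proteins have been linked in mouse neurons. Grik3, for the kainate receptor subunit GluK3, had 12.99 and 35.5 CPM in the cKO libraries, against 156 and 216 CPM in the control libraries. Both groups were spread, and both cKO libraries lay below both controls, as for 19.3% of all genes tested. The log2 fold change of -2.94 (SE 0.46) did not pass over all genes (edgeR adjusted p = 0.179). DESeq2 and limma-voom called Grik3, and they called 5.44% and 1.48% of all genes tested. The log2 fold change was -2.39 without cKO replicate 1 and -3.85 without cKO replicate 2.

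Grik2, for GluK2, the other kainate subunit on the list, differed by 0.02 on the log2 scale (SE 0.29), chosen for mention after its value was seen. Gria1, for the AMPA receptor subunit GluA1, had 74.2 and 58.1 CPM in cKO, against 29.0 and 23.1 CPM in control (log2 fold change 1.35, SE 0.29, edgeR adjusted p = 0.385). Add1, for the cytoskeletal protein adducin, had -0.10 (SE 0.15). C4b, a complement gene, had 0 counts in both cKO libraries, against 73 and 30 counts in control (6.64 and 1.43 CPM), and was at least 22.3-fold lower in cKO at the same floor, or at least 7.93-fold without control replicate 1 and 36.7-fold without control replicate 2. It passed the filter only through its control counts, and its reads may be split with its near-identical copy C4a. Of 7 genes tested edgeR called 0, with 1 higher and 2 lower at an unadjusted p under 0.05 and the same 3 genes (Gria1, Grik3 and C4b) called by DESeq2, while limma-voom called Gria1 and Grik3, against 5.44% of all genes by DESeq2 and 1.48% by limma-voom. The median was -0.10, and 0.089 without control replicate 2.

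**Figure D4:**
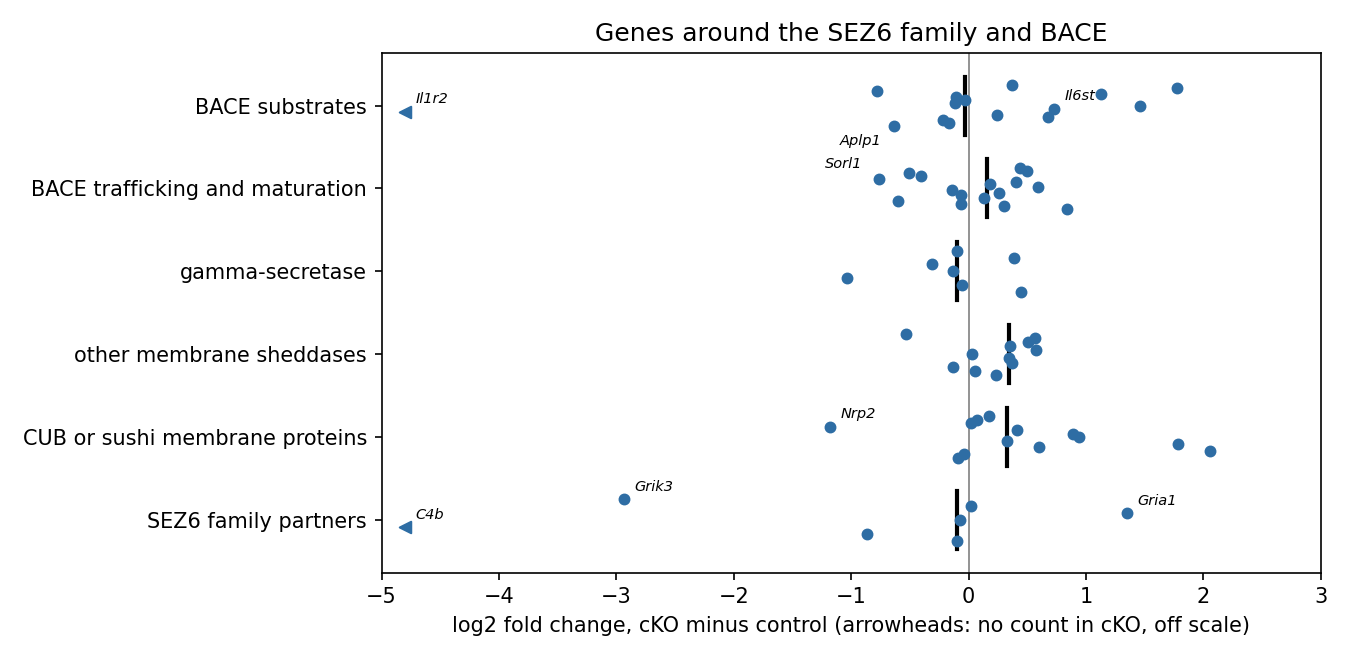
Log2 fold change, cKO minus control, of each tested gene in the 6 lists of related genes (points), with the list median as a black bar and arrowheads for Il1r2 and C4b, which had 0 counts in cKO and lie off the scale. Grik3 lies at -2.94, Nrp2 at -1.18 and Gria1 at 1.35, none of them past the edgeR threshold, and the list medians lie between -0.10 and 0.34.

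Markers of gonadotropes and of other cells also differed between the groups, and in such bulk samples fewer cells of a type and less RNA per cell cannot be told apart. By these markers the libraries were not of gonadotropes alone. Pomc, a corticotrope marker, had 6032 and 7145 CPM in cKO, against 7161 and 9813 CPM in control. The gonadotrope marker Lhb had 2069 and 2245 CPM in cKO, against 5144 and 4099 CPM in control. From such libraries the differences of Sez6 and Sez6l cannot be assigned to a cell type. The 10 gonadotrope markers all had log2 fold changes below 0 and Fshb was the 1 called by edgeR. At an unadjusted p under 0.05 there were 6, and DESeq2 and limma-voom called 5 each. Over all genes tested the shares were 0.0576% by edgeR, 7.04% for the unadjusted p, 5.44% for DESeq2 and 1.48% for limma-voom. The summed level of the gonadotrope markers was 7540 and 8980 CPM in cKO, against 16859 and 15094 CPM in control. Lactotrope markers were above 0 for 5 of 6 genes with 0 called by edgeR (3 at an unadjusted p under 0.05, 3 by DESeq2 and 1 by limma-voom), and summed to 1633 and 1679 CPM in cKO, against 679 and 995 CPM in control. Thyrotrope markers summed to 157 and 112 CPM in cKO, against 81.1 and 78.4 CPM in control (3 of 4 above 0). For these edgeR called 0, with 2 higher at an unadjusted p under 0.05, 1 called by DESeq2 and 0 by limma-voom. Stem cell markers summed to 114 and 140 CPM in cKO, against 84.8 and 86.1 CPM in control (4 of 6 tested above 0). Here edgeR called 0, and 1 higher and 1 lower had an unadjusted p under 0.05. DESeq2 called 1 higher and 1 lower, and limma-voom called 1 higher. Mitochondrially encoded transcripts took 7.58% and 8.74% of the counts in cKO, against 5.36% and 6.04% in control, with 0 of 13 genes called by edgeR, 13 at an unadjusted p under 0.05, 10 called by DESeq2 and 13 by limma-voom, against 7.04%, 5.44% and 1.48% of all genes. Corticotrope markers were below 0 for 5 of 5 genes and summed to 6177 and 7289 CPM in cKO, against 7316 and 10039 CPM in control, with 0 called by edgeR or DESeq2, 0 at an unadjusted p under 0.05, and Pomc called by limma-voom. Some sums came mostly from a single gene. In cKO replicate 1, Pomc had 6032 of the 6177 CPM of corticotrope markers. There Prl had 1249 of the 1633 CPM of lactotrope markers, and Dio2 116 of the 157 CPM of thyrotrope markers. Esr1, the lactotrope marker below 0, had a log2 fold change of -0.21 (SE 0.15). The lactotrope, thyrotrope, stem cell and mitochondrial sums were higher in both cKO libraries, as was Sez6l. The gonadotrope and corticotrope sums were lower in both, as were Sez6 and Sez6l2. The part of these markers in the differences was not tested.

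Neuronal markers, which matter because the SEZ6 family is best known from neurons, overlapped between the groups, with sums of 473 and 631 CPM in cKO, against 506 and 515 CPM in control (7 of 10 above 0, 0 called by edgeR, DESeq2 or limma-voom and 0 at an unadjusted p under 0.05). Syn1, for a synaptic vesicle protein, had 148 and 193 CPM in cKO, against 159 and 177 CPM in control. Melanotrope markers summed to 221 and 269 CPM in cKO, against 279 and 209 CPM in control, and somatotrope markers to 2177 and 414 CPM in cKO, against 1149 and 2406 CPM in control. Markers of pituicytes, endothelium, macrophages, fibroblasts and red cells summed to at most 36.9 CPM in any library, and Rax, Nkx2-1, Emcn, C1qa and C1qb had 0 counts in all 4.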

How the data were processed

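Poly(A) RNA of sorted gonadotropes was sequenced in 4 libraries, per the labels, and the submitters' processing notes name STAR 2.5.1b, featureCounts 1.5.0-p1 and the mm10 build. The deposited table holds estimated counts with no scaling between libraries, and 4.5% of its values were not whole. The sources used here do not give the annotation release, the strand setting or the treatment of multiply mapped reads. Identifiers were matched without version to GENCODE M21 (54495 of 54532).

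Counts were rounded and filtered with filterByExpr (minimum count 10, minimum total 15), scaled with TMM and fitted with group alone in the design by edgeR 4.0.16 (R 4.3.3), whose quasi-likelihood test is two-sided. Benjamini-Hochberg adjusted p under 0.05 over 17349 genes was the threshold. SE is the log2 fold change divided by the square root of F, and 95% intervals use the fit's total degrees of freedom. DESeq2 1.42.0 and limma-voom (limma 3.58.1) were alternatives, with other scalings, filters and left-out libraries. Coding sequences were aligned with Biopython 1.88. The fit was tested on simulated data. Floors of 3 counts and all intervals cover counting error or library spread only.

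The 5 genes and all lists were chosen with earlier results of these data known. Named genes were the 5 members, the 4 smallest p in each of the 6 pathway lists, the 6 most like Sez6 among genes averaging 2 or more in log2 CPM, and the leading markers, and 1 gene that this rule names is not reported here. Those leading markers are given here mainly as list sums, and neighbours were added by position.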

Additional observations from a re-analysis of the deposited data

How the results depend on the processing

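Over 16 alternatives each, the log2 fold changes of Sez6, Sez6l and Sez6l2 kept their sign. Against 10 genes called, DESeq2 called 943, limma-voom 256, edgeR's robust setting 26 and its newer quasi-likelihood method 47. There were 253 without any filter, 3 where the filter asked for 1 CPM in 2 libraries, and 66 to 681 after dropping any single library, and for each of these the cause was not tested. For Sez6 the call was lost with 1 CPM in 2 libraries (-1.90, adjusted p 0.0531) and with the replicate block (-1.90, adjusted p 0.0507), with the size unchanged, and the range with 1 library left out was -1.96 to -1.84. Sez6l was called with no filter (1.53), DESeq2 (1.54) and limma-voom (1.499), and without cKO replicate 2 or control replicate 2, in a range of 1.42 to 1.66 with 1 library left out. Sez6l2 was called with DESeq2 (-0.41) and limma-voom (-0.38) and without control replicate 2, in a range of -0.53 to -0.29. Bace1 was called in 0 of 16 and ran from -0.21 to 0.50 with 1 library left out, and Aph1a ran from -0.075 without control replicate 1 to 1.27 without control replicate 2. A group left with 1 library is assumed to vary like the other.

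Samples were not paired by their numbers in the main fit. Same-numbered libraries deviated from their group means with a correlation of -0.011. This cannot decide whether they were paired, since the deviations of 2 libraries in a group mirror each other. The replicate block gave 7 genes called and Sez6l and Sez6l2 values of 1.54 and -0.41. Over 7 alternatives each, the within-library ratios ran from -3.59 to -3.23 for Sez6 over Sez6l and from -1.54 to -1.42 for Sez6 over Sez6l2, where leaving out 1 of 2 libraries cannot move a mean by more than their spread. Bace2 gave no fold change, since it did not pass the filter and was at 0 in 3 libraries. Values of named pathway genes under these settings, list medians and folds at the floor of 3 counts without each library and levels per transcript length were added after seeing the data.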
